A study of Mus musculus with 15 samples.

Results

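The genes described here encode the subunits of the mouse proteasome, and they are 35 of the 23420 gene symbols in the deposited expression table. They were taken by symbol: a row had to read Psma, Psmb, Psmc or Psmd followed by a number, other than Psmb8 and Psmb9, and had to reach 1 TPM in at least 3 of the 15 libraries. TPM is an abundance per unit of transcript length, scaled so that each library sums to 1000000. The symbol pattern took 37 rows, of which 35 passed. Psma8, an alpha subunit known from testis, ranged from 0 to 1.74 TPM and did not pass, nor did Psmb11, the beta subunit of the thymus, at 0 to 0.21 TPM. The 35 members are 7 alpha and 8 beta subunits of the 20S core, 6 ATPases and 14 other proteins of the 19S cap. They were gathered as constitutive subunits, but the rule kept Psmb10, which is an interferon-inducible subunit, and Psmd5, Psmd9 and Psmd10, which are chaperones that assemble the cap and leave the finished particle.

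The proteasome is the barrel-shaped protease that breaks down ubiquitin-tagged proteins in every cell. Alpha subunits gate the barrel and beta subunits line its cutting chamber, where Psmb5, Psmb6 and Psmb7 carry the active sites. The 19S cap binds the ubiquitin chain, cuts it off and threads the unfolded protein inward with its ring of ATPases. Under interferon the related subunits Psmb8, Psmb9 and Psmb10 take the places of Psmb5, Psmb6 and Psmb7 and form the immunoproteasome, whose peptide products are loaded on MHC class I and shown to T cells. When proteasome activity is short, the transcription factor Nfe2l1 raises the subunit genes together.

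The tumors were grafts in female C57BL/6 mice of 8 weeks, each flank of which received 1000000 melanoma cells of D4M.3A.3 (parental) or of D3UV2 (UV2, a line with putative neoantigens induced by UVB). Tumors on the left flank were treated on days 8, 10 and 12 and harvested on day 13. The 5 groups, each of 3 libraries, were parental tumors under isotype control antibody, under anti-PD-1 (an antibody against the checkpoint receptor of T cells) and under triple therapy, and UV2 tumors under isotype and under anti-PD-1. The labels conflict on triple therapy: the sample characteristics name anti-PD-1 with imiquimod, a cream that activates Tlr7, and ablative fractional photothermolysis, in which a laser (days 8 and 12) burns fine channels into the skin. In the treatment protocol the antibody of this arm is the isotype, and which of them was used is not known. Imiquimod, or a plain lotion in its place, was put on on days 8, 10 and 12. Whether the 3 libraries of a group stem from different mice is not stated, so a p-value here reflects only how far these samples differ among themselves, which may be technical. RNA came from whole tumors, in which fewer cells of a type and less RNA per cell cannot be told apart.

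Read counts were not given, so the depth is unknown and the replicate spread is the measure of precision. Each library had 12239 to 13993 genes at 1 TPM or more, and correlations between libraries lay between 0.82 and 0.99. The labelled tissue was melanoma, but 7 melanocyte markers summed to only 8.20 to 35.4 TPM, with Sox10, Tyrp1, Dct and Mlana at or near 0 in most libraries. Skin and muscle were unevenly present: Krt14, a keratin of basal keratinocytes, reached 11620.4 TPM in parental triple therapy replicate 1, and Acta1, the actin of skeletal muscle, ranged from 0 to 311 TPM. Libraries also differed by transcript length. Genes with over 3000 coding bases lay furthest below genes with up to 500 bases in UV2 anti-PD-1 replicate 3 (by 0.99 on the log2 scale), UV2 isotype replicate 2, UV2 anti-PD-1 replicate 2 and parental isotype replicate 3. Below, TPM means carry their SD and log2 fold changes, computed on log2(TPM + 1), their standard error, with 3 libraries a group. A gene is called changed where limma's Benjamini-Hochberg adjusted p over the 13592 tested genes is under 0.05.

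All 35 members were abundant. Mean levels over the 15 libraries ran from 26.6 TPM for Psmd9 to 369 TPM for Psmb4, a beta subunit whose tail clasps the opposite ring. The next highest were Psma7 at 361 and Psmb3 at 337 TPM, and the next lowest Psmd10 at 43.0 and Psmd5 at 53.2 TPM, so the 3 lowest members were the 3 assembly chaperones. Per unit of length the core stood above the cap. The median mean level was 299 TPM for the 8 beta subunits (249.8 for Psmb6 to 369 for Psmb4) and 256 TPM for the 7 alpha subunits (218 for Psma5 to 361 for Psma7). It was 176 TPM for the 6 ATPases (149 for Psmc6 to 240.2 for Psmc3) and 121 TPM for the 14 other cap proteins, of which Psmd2, a scaffold of the cap's base, was the highest at 214 TPM.

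Most members varied little from library to library. The median SD of log2(TPM + 1) over the 15 libraries was 0.16 for the members, against 0.40 for all 13592 tested genes and 0.26 for 80 cytosolic ribosomal protein genes, another large complex. Of the 35 members, 33 lay under the median of all genes, whose typical level was far lower (18.6 TPM against 214 TPM for the members). The steadiest were Psmc5, an ATPase, with an SD of 0.09, and the cap proteins Psmd3 and Psmd8, both at 0.10. The most variable were Psmb10 at 0.89, Psmd11 at 0.45 and Psmd1 at 0.37. Psmc5 ranged over the 15 libraries only from 173 to 221 TPM, whereas Psmb10 ranged from 106 to 743 TPM.

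**Figure D1:**
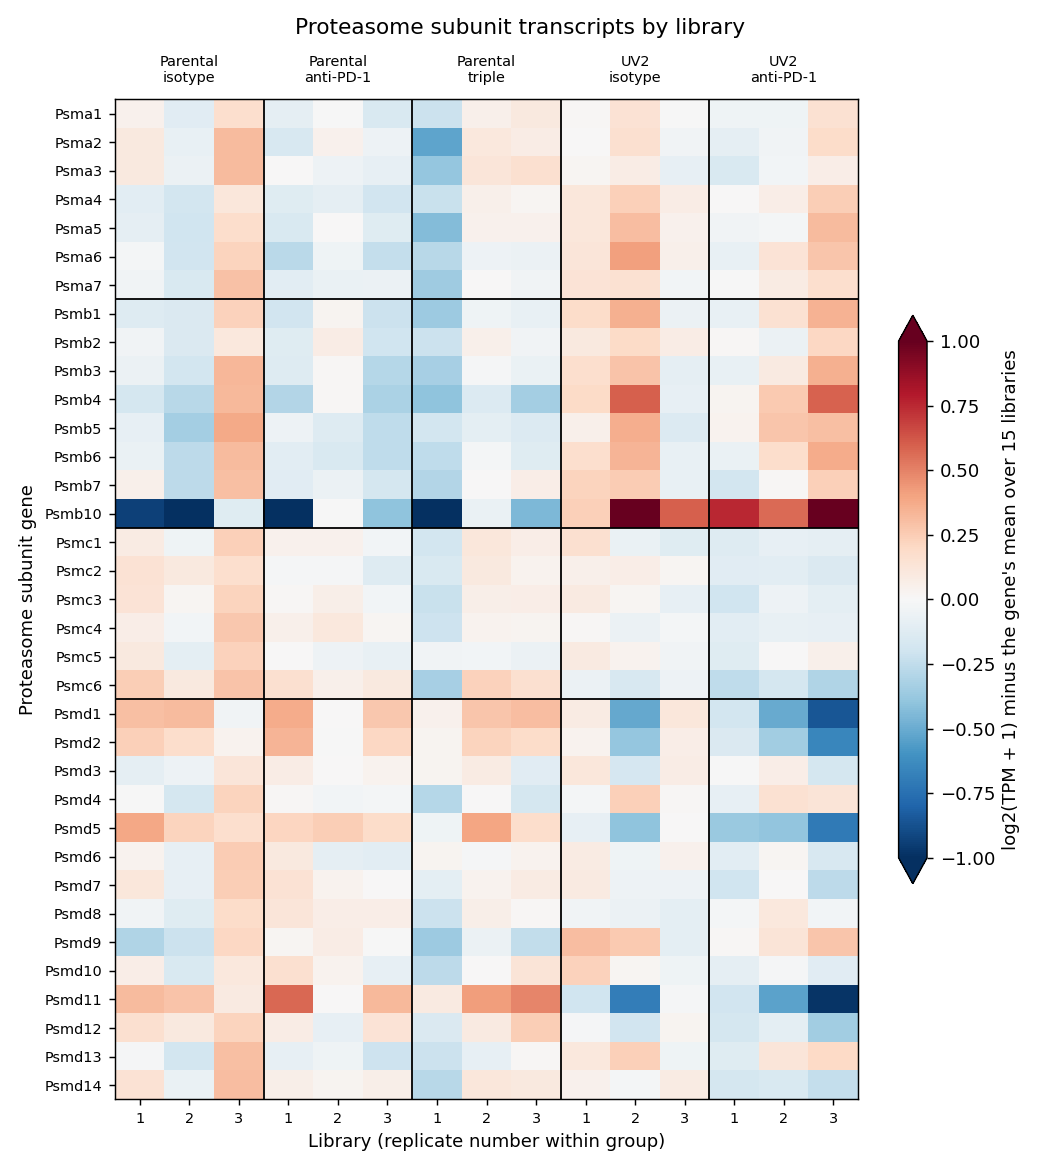
Each cell shows the log2(TPM + 1) of 1 of the 35 members (rows, in order of class) in 1 of the 15 libraries (columns) minus that member's mean over the libraries, with colors capped at 1 in either direction. Parental isotype replicate 3 stood above the member means in 33 of 35 rows and parental triple therapy replicate 1 in 5. Psmb10 was higher and Psmd11 lower in every UV2 library than in any parental one, and the share of all genes so separated was not counted.

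Single libraries moved the whole set up or down. The median deviation of the members from their own means was 0.23 in parental isotype replicate 3, which held the highest value of 18 members, and -0.22 in parental triple therapy replicate 1, which held the lowest value of 23. Summed over the 35 members, transcripts made up 7286 ± 926 TPM in parental isotype, 6818 ± 218 in parental anti-PD-1 and 6744 ± 746 in parental triple therapy tumors. In UV2 tumors they made up 7628 ± 582 TPM under isotype and 7427 ± 659 under anti-PD-1. The libraries spanned 5890.0 TPM, in parental triple therapy replicate 1, to 8293 TPM, in parental isotype replicate 3. The ranges of UV2 and parental tumors overlapped within each treatment, and so did those of the treatments within each line.

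Psmd5, Psmb10 and Psmd11 were the members that differed among the 5 groups by the moderated F-test of limma, with adjusted p of 0.0253, 0.0352 and 0.0453. These were 3 of 35 members, beside 9.92% of all tested genes, and 6 of 35 had an unadjusted p under 0.05, beside 35.2% of all genes. The 3 calls were sensitive to single libraries, and so was the share of all genes called. None remained without parental isotype replicate 1 or 2, parental anti-PD-1 replicate 3 or parental triple therapy replicate 3. Nor did any remain without any 1 of the UV2 anti-PD-1 libraries. Those fits called 1.91% to 4.46% of all genes. Without UV2 isotype replicate 2, 1 remained, beside 6.44% of all genes.

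Psmb10 (chr8:105935735-105938444, minus strand, GRCm38, 819 coding bases), the inducible counterpart of Psmb7, was the member that set UV2 tumors most apart. It stood at 121, 106 and 213 TPM in the parental isotype libraries, 108, 231 and 175 TPM under anti-PD-1 and 107, 221 and 169 TPM under triple therapy. In UV2 tumors it stood at 274, 630.0 and 351 TPM under isotype and at 392, 343 and 743 TPM under anti-PD-1. Each UV2 library lay above every parental library, including those of triple therapy. How many of all genes were so separated was not counted. Under anti-PD-1 alone 16.9% of all genes, and under isotype alone 10.4%, were higher in UV2 without overlap. Among anti-PD-1 tumors the mean was 492 ± 218 TPM in UV2 against 171 ± 61.3 TPM in parental tumors, a log2 difference of 1.50 ± 0.41 (limma, adjusted p = 0.0267), and the gene was called higher. Among isotype tumors the mean was 418 ± 187 against 147 ± 57.8 TPM, a log2 difference of 1.48 ± 0.41 that was not called (limma, adjusted p = 0.0904). In 5 of the 6 fits that left out a single library of these groups it was also not called. It was called without parental isotype replicate 3, the highest of its group (1.79 ± 0.44, limma, adjusted p = 0.0476). That fit called 3.37% of all genes, against 1.29% with all libraries.

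The letters upstream of 4 members are shown as examples. Psmb5 and Psmb6 are active-site subunits with a match to the core of the antioxidant response element. That element is the site that Nfe2l1 and Nfe2l2 bind with a small Maf partner. Psmb10 and Psmd11, both called in the F-test, have no match. Only 5 of 29 members with a promoter entry had one, so its lack does not set Psmb10 and Psmd11 apart. The letters are RefSeq sequences on GRCm38.p6, written 5′ to 3′ on the gene's strand, each 100 bases that end before the annotated start. Capitals mark TGACNNNGC. The windows are chr14:54618023-54618122 (minus strand) for Psmb5, chr11:70525257-70525356 (plus strand) for Psmb6, chr8:105938445-105938544 (minus strand) for Psmb10 and chr11:80428515-80428614 (plus strand) for Psmd11.
Psmb5: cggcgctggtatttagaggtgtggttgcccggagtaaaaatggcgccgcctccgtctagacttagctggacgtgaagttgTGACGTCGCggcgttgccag
Psmb6: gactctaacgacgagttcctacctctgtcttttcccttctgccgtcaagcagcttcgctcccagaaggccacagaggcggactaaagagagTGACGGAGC
Psmb10: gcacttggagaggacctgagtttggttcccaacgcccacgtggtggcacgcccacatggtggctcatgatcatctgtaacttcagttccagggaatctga
Psmd11: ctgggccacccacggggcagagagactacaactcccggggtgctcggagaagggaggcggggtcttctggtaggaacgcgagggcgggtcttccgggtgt

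RefSeq promoter windows, from 250 bases before to 50 after a start, were matched for 29 of the 35 members, with no entry for Psmb1, Psmb2, Psmb7, Psmc3, Psmd3 and Psmd7. TGACNNNGC stood on either strand in 5 of the 31 member windows (16.1%), those of Psmb5, Psmb6, Psmc6, Psmd9 and Psmd12, against 12.4% of all 32851 windows. CCAAT, the box bound by NF-Y, stood in 11 member windows (35.5%) against 37.4% of all. The core of the interferon-stimulated element (GAAA, any 2 bases and GAAA again) stood in 3 (9.68%), those of Psmb3, Psmd4 and Psmd9, against 3.44% of all, and not in that of Psmb10. No match of 1 motif overlapped a match of another, but the CCAAT matches of Psmd14 that start at positions 4 and 7, on opposite strands, share bases. A match is a run of letters, and binding was not measured.

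Under anti-PD-1, UV2 and parental tumors differed in 5 of the 35 members. Psmb10 rose, and Psmd11, Psmd1, Psmd5 and Psmd2, all of the 19S cap, fell. These 5 are 14.3% of the members, and the same test called 26.4% of all tested genes (9.31% higher and 17.1% lower), so the share of members called was below that of genes at large. Those 17.1% and 9.31% are 2321 and 1265 genes, and with median-of-ratios scaling 1793 were lower and 1951 higher. Before adjustment 7 of 35 members, the 5 called ones included, had a p under 0.05, beside 45.1% of all genes. Groups did not overlap for 6 members that were higher and 10 that were lower in UV2, beside 16.9% and 34.3% of all genes. That scaling moved the median difference of all genes from -0.21 to 0.03. Relative to the median of all genes Psmb10 was higher by 1.70, and Psmd11, Psmd1, Psmd5 and Psmd2 stood at -0.67, -0.52, -0.50 and -0.36.

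Psmd11 (chr11:80428615-80473248, plus strand), a scaffold of the cap's lid, had the lowest fold change of the members. It stood at 125, 122 and 107 TPM under parental isotype, 149.7, 100.3 and 126 TPM under parental anti-PD-1 and 106, 134 and 140.4 TPM under triple therapy. In UV2 tumors it stood at 87.1, 61.7 and 99.35 TPM under isotype and 87.2, 68.7 and 50.3 TPM under anti-PD-1. All 6 UV2 libraries lay below the 9 parental ones, the closest at 99.35 against 100.3 TPM. The share of all genes so separated was not counted, and under anti-PD-1 alone 34.3% of all genes were lower in UV2 without overlap. The means under anti-PD-1 were 68.7 ± 18.4 TPM in UV2 and 125 ± 24.7 TPM in parental tumors, a log2 difference of -0.87 ± 0.22 (limma, adjusted p = 0.0225). Under isotype it was -0.53 ± 0.22 and not called (adjusted p = 0.238).

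Psmd5 (chr2:34849734-34874968, minus strand), which holds the ATPases during assembly of the cap's base, had the smallest adjusted p. Parental libraries stood at 68.5, 60.7 and 58.45 TPM under isotype, 60.6, 61.7 and 59.2 TPM under anti-PD-1 and 50.6, 68.7 and 58.9 TPM under triple therapy. UV2 libraries stood at 49.2, 39.2 and 52.2 TPM under isotype and 40.0, 39.2 and 31.4 TPM under anti-PD-1. The anti-PD-1 groups were far apart, whereas UV2 isotype replicate 3 lay above triple therapy replicate 1. The log2 difference under anti-PD-1 was -0.71 ± 0.15 (36.9 ± 4.74 against 60.5 ± 1.27 TPM; limma, adjusted p = 0.0138), and under isotype -0.42 ± 0.15 (adjusted p = 0.164).

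Psmd1 (chr1:86064387-86139151, plus strand) and Psmd2 (chr16:20651652-20663414, plus strand) are the large scaffolds of the cap that receive ubiquitin receptors and shuttle factors. Psmd1 stood at 142, 109 and 132 TPM in parental and 95.6, 76.5 and 59.9 TPM in UV2 tumors under anti-PD-1, a log2 difference of -0.73 ± 0.20 (limma, adjusted p = 0.0270). Psmd2 stood at 267, 211 and 243 TPM in parental and 191, 165 and 134 TPM in UV2 tumors, a difference of -0.56 ± 0.16 (limma, adjusted p = 0.0279). The 3 UV2 libraries lay below the 3 parental ones for each gene, and UV2 replicate 3 was the lowest. Under isotype the groups overlapped: Psmd1 stood at 134, 136 and 106 TPM in parental and 115, 76.05 and 118 TPM in UV2 tumors (log2 difference -0.30 ± 0.20, adjusted p = 0.484), and the difference for Psmd2 was -0.24 ± 0.16 (adjusted p = 0.465).

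**Figure D2:**
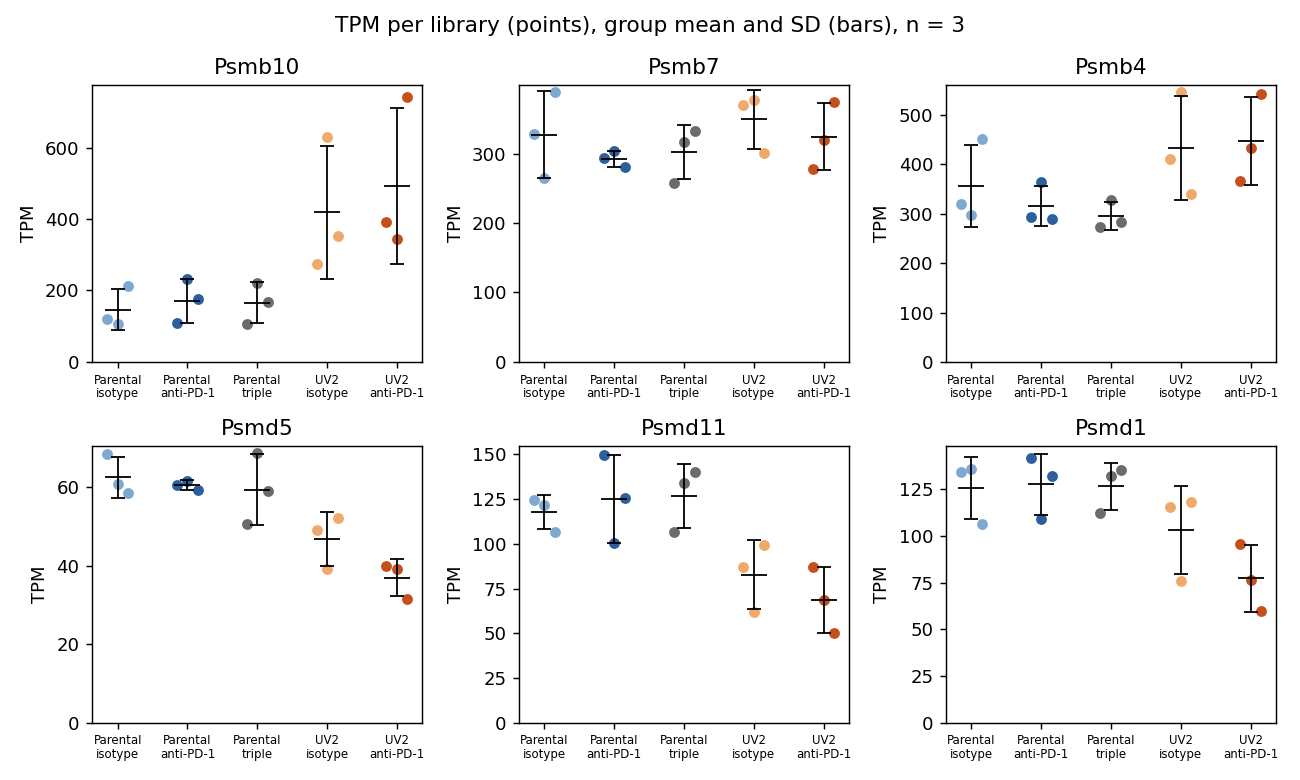
Points are TPM in single libraries for 6 members, with the mean and SD of each group of 3 as bars, and each panel has its own linear axis from 0. Psmb10 stood at 274 to 743 TPM in UV2 and 106 to 231 TPM in parental libraries, Psmd11 at 50.3 to 99.35 and 100.3 to 149.7 TPM, while Psmb7 and Psmb4 overlapped between the lines.

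The other members kept to a narrow band, and core and cap stood apart within it. Of all 35 members 19 were positive in UV2 against parental tumors under anti-PD-1, beside 38.4% of all genes. These were all 15 core subunits, with a median log2 difference of 0.24, and 4 of the 20 cap proteins, whose median was -0.12, beside -0.21 for all tested genes. The sign of the cap turned with the scaling: with median-of-ratios 15 of its 20 genes were positive (median 0.15), while the 15 core subunits stayed positive (median 0.51). With quantile normalization 14 of 15 core and 7 of 20 cap genes were positive. Apart from Psmb10 none of the core subunits was called. The highest of them, Psmb4, stood at 294, 363 and 289 TPM in parental and 367, 433 and 543 TPM in UV2 tumors (log2 difference 0.49 ± 0.21; limma, adjusted p = 0.0861). Psmb5, the chymotrypsin-like active site, stood at 248, 235 and 216 against 264, 312 and 317 TPM (0.35 ± 0.17, adjusted p = 0.135). Psmb6, the caspase-like site, stood at 229.7, 222 and 208 against 236, 279 and 320.4 TPM (0.33 ± 0.16, adjusted p = 0.134). In these 3 genes the groups did not overlap, yet the differences were too small beside the spread to be called. Psmb7, the trypsin-like site, overlapped between groups (0.14 ± 0.16, adjusted p = 0.522).

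None of the alpha subunits and ATPases was called. The alpha subunits Psma1 and Psma7 differed by 0.11 ± 0.12 and 0.16 ± 0.13 on the log2 scale (limma, adjusted p = 0.492 and 0.368), and the 7 of them ranged from 0.00 for Psma3 to 0.30 for Psma6. Among the ATPases, which unfold the substrate, Psmc1 differed by -0.12 ± 0.12, Psmc4 by -0.14 ± 0.11 and Psmc6, the lowest of them, by -0.35 ± 0.14 (adjusted p = 0.432, 0.311 and 0.0696). Psmd4, a ubiquitin receptor, differed by 0.08 ± 0.13 and Psmd14, the enzyme that cuts the ubiquitin chain off, by -0.23 ± 0.13 (adjusted p = 0.660 and 0.165). The chaperones Psmd9 and Psmd10 differed by 0.11 ± 0.16 and -0.11 ± 0.14 (adjusted p = 0.626 and 0.531), unlike Psmd5 among the 3, a contrast between chaperones that was not tested.

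Core and cap also differ in the length of their coding sequences, and this ran along with the signs. All 15 core subunits have 603 to 831 coding bases, and 16 of 20 cap proteins have over 1000. Among the members with up to 1000 coding bases 16 of 19 were positive, and among the longer ones 13 of 16 were negative. The 4 short cap proteins, Psmd9, Psmd10, Psmd14 and Psmd7, differed by 0.11, -0.11, -0.23 and -0.21. Pearson's r between the log2 difference and log2 coding length was -0.63 over 35 members, which share the same 6 libraries, and -0.35 over the 12390 tested genes with a coding length. The median difference of all genes fell from 0.25 in the class of up to 500 coding bases through 0.04, -0.18, -0.32 and -0.47 to -0.70 over 3000 bases. In the members it was 0.16 from 501 to 1000 bases, -0.09 from 1001 to 1500, -0.39 from 1501 to 2000 and -0.65 from 2001 to 3000.

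With a smooth trend on coding length removed from each library, Psmb10 (1.50 ± 0.41, limma adjusted p = 0.0279), Psmd11 (-0.67, adjusted p = 0.0130) and Psmd5 (-0.43, adjusted p = 0.0264) were still called in UV2 against parental tumors under anti-PD-1. Psmd1 (-0.19, adjusted p = 0.171) and Psmd2 (-0.04, adjusted p = 0.811), the longest members at 2859 and 2724 bases, were not. That fit called 27.6% of all genes. Place in the particle and coding length cannot be told apart in these members.

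**Figure D3:**
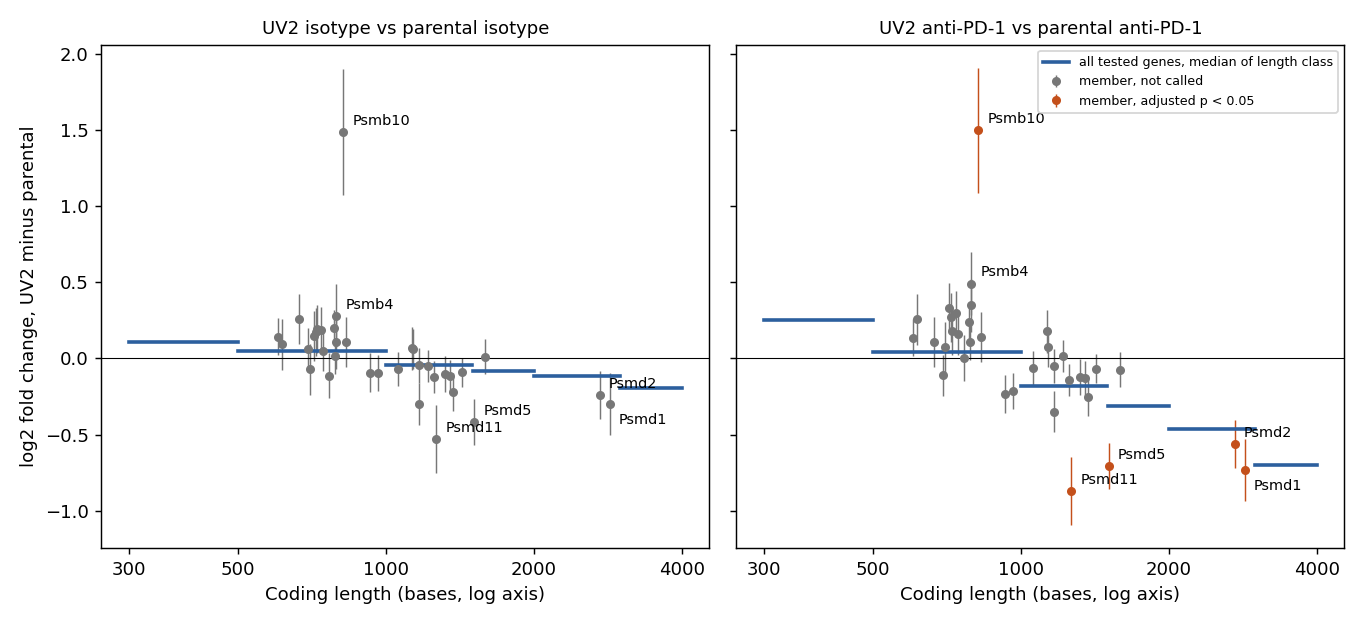
Points are the log2 fold changes of the 35 members, UV2 minus parental, with standard errors, by coding length on a log axis, for isotype (left) and anti-PD-1 (right) tumors; blue lines are the medians of all tested genes by length class, the open-ended outer classes drawn to a chosen edge. The blue lines step down from 0.25 to -0.70 under anti-PD-1. Psmd1 and Psmd2, at -0.73 and -0.56, lie below the line of their class at -0.47. Psmd5, at -0.71, lies below its line at -0.32, and Psmd11, at -0.87, below its line at -0.18. Psmb10, at 1.50, lies above its line at 0.04.

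The libraries of a group differed in this respect, and so did the groups compared. Over 3000 against up to 500 coding bases, the median deviations differed by -0.04, -0.67 and -0.99 in the 3 UV2 anti-PD-1 libraries and by 0.58, 0.01 and 0.53 in the parental anti-PD-1 libraries, with no overlap. The 4 members with over 1500 coding bases, Psmd1, Psmd2, Psmd3 and Psmd5, had a median deviation of -0.68 in UV2 anti-PD-1 replicate 3, -0.39 in UV2 isotype replicate 2 and -0.37 in UV2 anti-PD-1 replicate 2. It was -0.17 in UV2 anti-PD-1 replicate 1, still below all 9 parental libraries, where the lowest value was 0.00. In the first 3 of these libraries the 17 members with up to 900 bases stood at 0.27, 0.26 and 0.08. Parental isotype replicate 3, where the long genes at large were also low, had 0.08 for the 4 long and 0.23 for the 17 short members. Without the 3 UV2 libraries named first, 0 of 35 members were called under anti-PD-1, where 1 UV2 library was then left and assumed to vary like the other groups, and 0 of all genes were. The log2 differences were then 1.25 for Psmb10, -0.50 for Psmd11, -0.58 for Psmd5, -0.40 for Psmd1 and -0.33 for Psmd2.

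**Figure D4:**
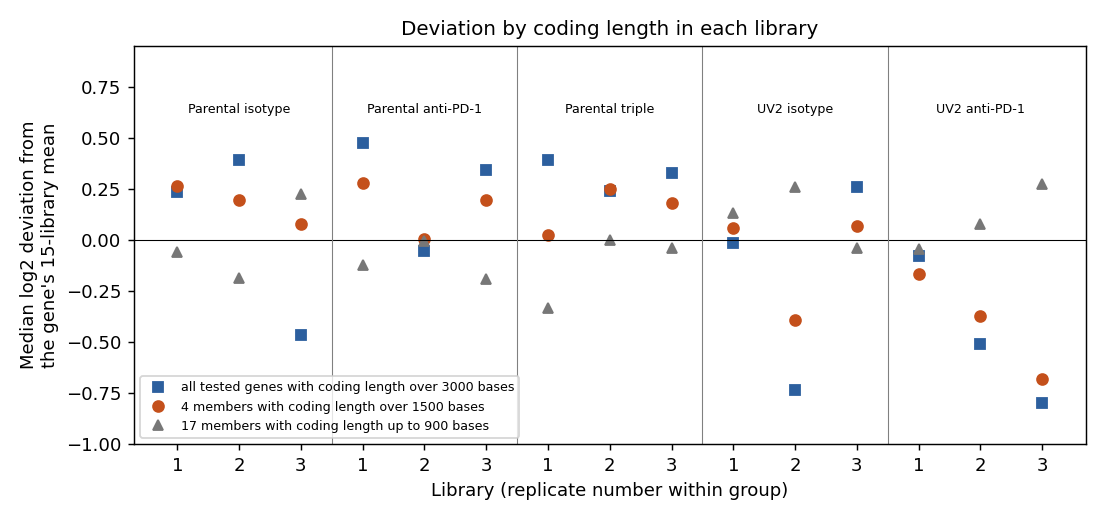
Each library (x axis, replicate numbers within the 5 groups) has the median log2 deviation from 15-library means (y axis) of all tested genes with over 3000 coding bases, of the 4 members over 1500 and of the 17 members up to 900 bases. UV2 anti-PD-1 replicate 3 shows the widest split, with the 4 long members at -0.68 and the 17 short ones at 0.27.

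The calls under anti-PD-1 also rested on single libraries. None of the 5 was called without parental anti-PD-1 replicate 3 or without UV2 anti-PD-1 replicate 3, where only 9 genes of all were. Of the 5, 1 (Psmd5) was called without parental anti-PD-1 replicate 1, beside 8.92% of all genes. Without UV2 anti-PD-1 replicate 2, 3 were called, beside 10.9% of all genes. The signs held throughout. Immune markers moved with the same contrast, in which 9.31% of all genes were called higher. Of 10 T cell markers 9 were called higher (summed level 366 to 516 TPM in UV2 against 41.1 to 122 TPM in parental libraries). So were 7 of 10 macrophage and monocyte markers (11837 to 14811 against 3661 to 6050 TPM) and 3 of 12 interferon gamma response genes (1986 to 4866 against 1007 to 2664 TPM). None of these markers was at 0 in any library. Of the keratinocyte and the muscle markers, 12 tested in each list, 0 were called. All 12 keratinocyte markers were positive, with a median of 1.17, and summed to 10.3, 9.20 and 379.65 TPM in UV2 replicates 1 to 3 against 7.08 to 11.1 TPM in parental libraries. The high library, UV2 anti-PD-1 replicate 3, is 1 of those without which no member was called, and held Krt14 at 69.5 TPM. The part of these cells in the members' differences was not tested.

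Under isotype antibody, UV2 and parental tumors differed in 0 of 35 members by limma, beside 1.29% of all tested genes (0.905% higher and 0.39% lower). Those were 123 and 53 genes, and with median-of-ratios scaling 65 and 82. At an unadjusted p under 0.05 there were 4, namely Psmb10, Psmd5, Psmd11 and Psmc6, beside 17.8% of all genes. Signs were split, 18 positive and 17 negative, beside 45% positive among all genes, and the median was 0.01 against -0.04. Again 13 of 15 core subunits were positive and 15 of 20 cap proteins negative. The groups did not overlap for Psmb10 among the higher members, beside 10.4% of all genes, nor for Psmd5, Psmd11, Psmc6, Psmc2 and Psmd12 among the lower ones, beside 9.15%. After Psmb10 the highest difference was that of Psmb4, 0.28 ± 0.21 (adjusted p = 0.531), with 319, 298 and 451 TPM in parental and 412, 547 and 340.5 TPM in UV2 libraries. In this gene parental isotype replicate 3 stood above 2 of the 3 UV2 libraries. T cell markers summed to 44.4 to 149 TPM in parental and 85.4 to 328 TPM in UV2 libraries, and 0 of 10 were called. Macrophage and monocyte markers summed to 3804 to 6109 TPM in parental and 6750.2 to 9900.4 TPM in UV2 libraries, and 2 of 10 were called higher. Interferon gamma response genes summed to 1018 to 1227 and 1851 to 3851 TPM, and 2 of 12 were called higher. Neither of these 2 sums overlapped between the lines, and their part in the members' differences was not tested.

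Transcripts of inducible and standard active-site subunits were compared as a ratio within each library, the log2 of (inducible TPM + 1) over (standard TPM + 1), which drops any factor common to both genes. Subunits in the assembled particle were not measured. In whole tumors a change in the mix of cells and a change within cells cannot be told apart in this ratio. Psmb10 over Psmb7 stood at -1.44, -1.31 and -0.87 under parental isotype, -1.43, -0.40 and -0.68 under parental anti-PD-1 and -1.26, -0.52 and -0.97 under triple therapy. In UV2 tumors it stood at -0.44, 0.74 and 0.22 under isotype and 0.49, 0.10 and 0.98 under anti-PD-1. Psmb7 was the more abundant of the pair in all 9 parental libraries, and Psmb10 in 5 of the 6 UV2 libraries. UV2 exceeded parental tumors by 1.38 under isotype (0.17 ± 0.59 against -1.21 ± 0.30, SD) and by 1.36 under anti-PD-1 (0.53 ± 0.44 against -0.83 ± 0.53), with no overlap in either case (2-sided exact permutation test, p = 0.1, the smallest that 3 against 3 can give; adjusted p = 0.6 over 18 tests).

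For Psmb8 and Psmb9 the UV2 means were also the higher ones, with smaller differences. Psmb8 over Psmb5 stood at 0.09 ± 0.08 (SD) under parental isotype, 0.42 ± 0.49 under parental anti-PD-1, 0.91 ± 0.68 under UV2 isotype and 1.21 ± 0.54 under UV2 anti-PD-1. The UV2 excess was 0.83 and 0.80 in this pair (exact permutation p = 0.2 and 0.3; adjusted p = 0.72 for both). Psmb9 over Psmb6 stood at -0.41 ± 0.10, -0.14 ± 0.35, 0.43 ± 0.69 and 0.71 ± 0.54 in the same order, an excess of 0.84 in both treatments (exact permutation p = 0.2 and 0.1; adjusted p = 0.72 and 0.6). Of these 4 comparisons the groups did not overlap in 1, Psmb9 over Psmb6 under anti-PD-1. UV2 isotype replicate 1 was the lowest UV2 library in all 3 ratios. It was also the lowest UV2 library in summed T cell (85.4 TPM), macrophage and monocyte (6750.2 TPM) and interferon gamma response (1851 TPM) markers. Parental anti-PD-1 replicate 3 had the fewest T cell transcripts of all 15 libraries (41.1 TPM), with ratios of 0.71, 0.01 and -0.68. In replicate 1 of that group, at 113 TPM, they were -0.15, -0.54 and -1.43. Macrophage and monocyte markers also summed to less in that replicate 3, with 3661 TPM against 6050 TPM in replicate 1. Interferon gamma response genes went the other way, with 2664 against 1007 TPM. How the ratios relate to these markers was not tested. Within a line the groups overlapped in every comparison of treatments. The mean ratios differed by -0.20 to 0.37, with exact permutation p of 0.3 to 0.9. With 3 libraries against 3 that p cannot fall below 0.1, so no ratio could pass the test. No conclusion on treatment is drawn from it.

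**Figure D5:**
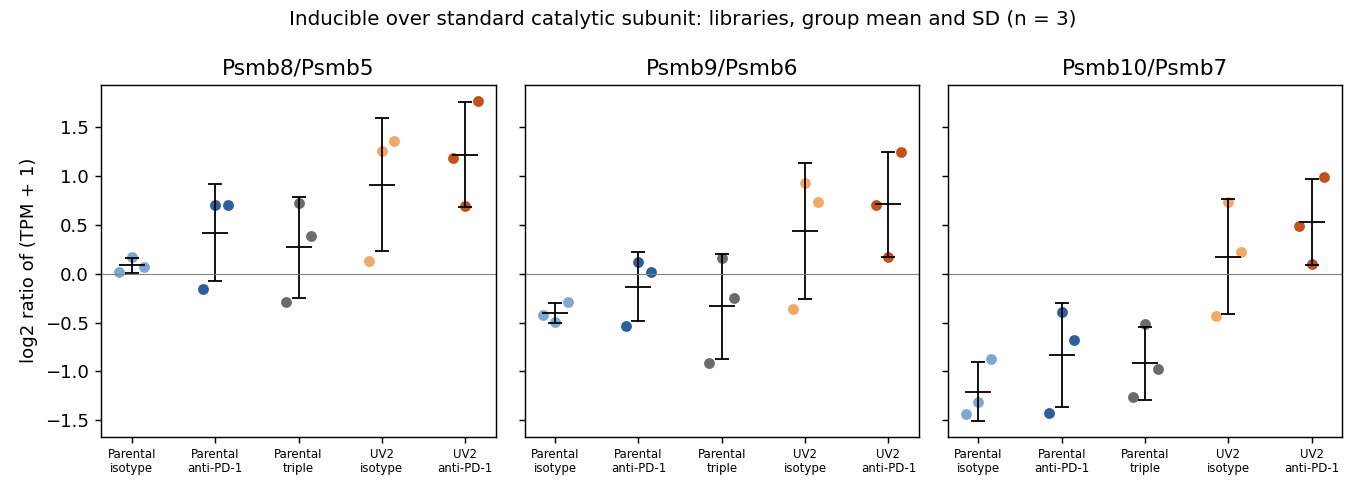
Points are the log2 ratios of (TPM + 1) of inducible over standard active-site subunits in single libraries, with the mean and SD of each group of 3 as bars. Psmb10/Psmb7 lay between -1.44 and -0.40 in the 9 parental libraries and between -0.44 and 0.98 in the 6 UV2 libraries.

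Genes that work with the proteasome were read from 6 lists, of which 59 genes were tested. In UV2 against parental tumors under anti-PD-1 6 of them were called higher and 18 lower, beside 9.31% and 17.1% of all genes. With median-of-ratios scaling the calls over all genes were 1951 higher and 1793 lower, and list counts are not given for that scaling. Among the immunoproteasome subunits and ring activators, Psme1 and Psme2, the interferon-inducible activator of the core, rose (1.06 ± 0.29 and 1.06 ± 0.33, limma adjusted p = 0.0257 and 0.0374), and Psme4, a nuclear activator, fell (-1.33 ± 0.32, adjusted p = 0.0197), so 3 of 6 changed. Psmb8 and Psmb9 were at the threshold, with 1.15 ± 0.40 and 1.17 ± 0.42 (adjusted p = 0.0501 and 0.0545). Of 5 assembly chaperones of the core, Psmg4 rose (0.86 ± 0.25, adjusted p = 0.0304). Pomp, which matures the beta rings, differed by 0.55 ± 0.23 and was not called (adjusted p = 0.0796).

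Factors bound to the proteasome had 7 calls, all lower. Of 12 ubiquitin receptors, deubiquitinases and inhibitors of the proteasome, 7 fell, namely the shuttle factors Rad23b (-0.92 ± 0.25), Ubqln4 (-0.81 ± 0.23), Ubqln2 (-0.63 ± 0.22) and Ubqln1 (-0.59 ± 0.19), the ligase Ube3c (-0.91 ± 0.26), the deubiquitinase Usp14 (-0.55 ± 0.18) and AI314180 (-0.65 ± 0.22), beside 17.1% of all genes that fell. The other 5 were not called, among them Shfm1, a small protein of the cap's lid and the 1 positive gene of the list (0.65 ± 0.23, limma adjusted p = 0.0514). With the length trend removed 3 of these, Rad23b, Ubqln1 and Ubqln4, were called, in a fit that called 1587 of 12390 genes lower. Of 10 genes for ubiquitin, its activating enzyme and the Vcp unfoldase, the activating enzyme Uba1 (-0.82 ± 0.27) and the Vcp partners Faf2 (-0.75 ± 0.23), Nploc4 (-0.66 ± 0.20) and Ufd1l (-0.52 ± 0.14) fell, beside the same 17.1% of all genes. Of these, 2 were called with the trend removed, Faf2 and Nploc4, beside the same 1587 of 12390 genes. Ufd1l and AI314180 had no coding length and were not in that fit.

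The control of proteasome genes by Nfe2l1 was covered by 11 genes, of which 5 fell and 0 rose, beside 17.1% and 9.31% of all genes. Nfe2l1 itself, the factor that induces proteasome subunits, stood at 105 ± 14.5 TPM in UV2 and 194 ± 23.2 TPM in parental tumors under anti-PD-1 (-0.89 ± 0.18, limma adjusted p = 0.0126). Its relative Nfe2l2 (-0.83 ± 0.22), the small Maf partners Mafg (-1.52 ± 0.36) and Maff (-1.36 ± 0.38) and the ligase Syvn1 (-0.62 ± 0.21) also fell. With the length trend removed the first 4 were still called, and Ngly1, which trims Nfe2l1, was called higher (0.81, limma adjusted p = 0.0130). That fit called 1587 of 12390 genes lower and 1830 higher. The 5 members with a TGACNNNGC match were divided in the same contrast: Psmb5, Psmb6 and Psmd9 differed by 0.35, 0.33 and 0.11 and Psmc6 and Psmd12 by -0.35 and -0.25, and none was called.

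Of 15 peptidases and genes of MHC class I loading, which handle the peptides the proteasome makes, the transporter subunit Tap2 (1.05 ± 0.33), the loading factor Tapbp (0.77 ± 0.25) and the regulator Irf1 (1.08 ± 0.27) rose, and the peptidase Npepps (-1.03 ± 0.26) fell (limma, adjusted p of 0.0371, 0.0431, 0.0218 and 0.0220). Irf1 is also 1 of the interferon gamma response genes counted above. Of the 80 ribosomal protein genes 13 rose and 0 fell, with a median of 0.36, beside 9.31% of all genes that rose. With the length trend removed 7 of them were called higher, in a fit that called 1830 of 12390 genes higher. Under isotype none of the 59 list genes was called by limma, and 15 had an unadjusted p under 0.05. Nearest were Irf1 (1.22 ± 0.27, adjusted p = 0.0503), Psme1 (1.25 ± 0.29, adjusted p = 0.0538), Tapbp (1.05 ± 0.25, adjusted p = 0.0619) and Maff (-1.51 ± 0.38, adjusted p = 0.0692).

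Anti-PD-1 against isotype in parental tumors asked what the antibody did in the line without added neoantigens. No member was called (0 of 35 by limma, beside 0% of all genes), and 0 had an unadjusted p under 0.05, beside 0.611% of all genes. Of the members 27 were negative, with a median of -0.11, although 65.4% of all genes were positive, with a median of 0.07. The highest differences were those of Psmb10 (0.23 ± 0.41) and Psmd9 (0.13 ± 0.16), and the lowest those of Psmc2, an ATPase (-0.19 ± 0.10), and Psma6 (-0.19 ± 0.15), all with an adjusted p of 1. Psmc2 stood at 169, 164 and 171 TPM under isotype and 151, 151 and 139.9 TPM under anti-PD-1, the 1 member whose groups did not overlap, beside 1.57% of all genes that were lower in this way and 2.7% that were higher. None of the 59 list genes was called, and 2 had an unadjusted p under 0.05. With single libraries left out the members' median lay between -0.16 and 0.00.

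In UV2 tumors anti-PD-1 likewise left no member called (0 of 35 by limma, beside 0.0147% of all genes), and 1, Psmd5, had an unadjusted p under 0.05, beside 9.16% of all genes. The median was -0.06 for the members and -0.11 for all genes, with 6 of 35 members positive, beside 37.7% of all genes. The groups did not overlap for Psmd8, which was higher, beside 5.7% of all genes, nor for the ATPases Psmc2, Psmc4 and Psmc6 and for Psmd14, which were lower, beside 7.28%. Psmb10 was again the highest (0.24 ± 0.41, adjusted p = 0.789), followed by Psmb5 (0.11 ± 0.17, adjusted p = 0.766). The lowest were Psmd1 (-0.41 ± 0.20, adjusted p = 0.557) and Psmd5 (-0.33 ± 0.15, adjusted p = 0.543). Both genes had their lowest value of the UV2 libraries in anti-PD-1 replicate 3, and their groups overlapped. With libraries scaled by median-of-ratios the members' median was 0.07 and 25 of 35 were positive, so no direction is given for the set. Among the 59 list genes 0 were called and Ubqln2 had the smallest p (-0.47 ± 0.22, adjusted p = 0.546).

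Whether anti-PD-1 acted differently in the lines was tested by the difference of these 2 effects, UV2 minus parental. It was called in 0 of 35 members by limma, beside 0% of all genes, and 0 had an unadjusted p under 0.05, beside 2.97% of all genes. The extremes were Psmb5 (0.24 ± 0.25) and Psmb4 (0.21 ± 0.29) at the top and Psmd1 (-0.43 ± 0.29) and Psmd11 (-0.34 ± 0.32) at the bottom, with adjusted p of 0.80 to 0.82. For Psmb10 the effects in the lines, 0.24 and 0.23, were nearly the same, each with a standard error of 0.41. The interaction holds the same libraries as the comparisons of lines and of treatments, so these results are not independent.

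Triple therapy in parental tumors was set against isotype and against anti-PD-1, and its comparison with isotype shares the control libraries of anti-PD-1 against isotype. Neither left a member called (0 of 35 by limma in both, beside 0.0221% and 0% of all genes), and none had an unadjusted p under 0.05, beside 12.6% and 10.4% of all genes. Against isotype 30 of 35 members were negative with a median of -0.12, although 64.2% of all genes were positive. The lowest differences were those of Psmb4 (-0.25 ± 0.21, adjusted p = 0.634) and Psma2, an alpha subunit (-0.23 ± 0.17, adjusted p = 0.588), and the highest those of Psmb10 (0.18 ± 0.41, adjusted p = 0.869) and Psmd11 (0.10 ± 0.22, adjusted p = 0.867). Psma2 stood at 345, 307 and 401 TPM under isotype and 224, 347 and 339 TPM under triple therapy, where replicate 1 was the lowest of all 15 libraries. Psmc2, at 138, 163 and 157 TPM under triple therapy, was the 1 member whose groups did not overlap, beside 3.39% of all genes that were lower in this way.

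That library stood apart from the other 2 of its group in its skin content. The 13 keratinocyte markers summed to 35682 TPM in triple therapy replicate 1, with a range in the group from 234 TPM, and to 7.08 to 11.2 TPM in the other parental libraries. The members' part of the total was 5890.0 TPM there against 7269 and 7073 TPM in replicates 2 and 3. Without it the members' median against isotype was -0.02, with 21 of 35 negative, as it also was without parental isotype replicate 3, and against anti-PD-1 it was 0.07, with 8 of 35 negative. The part of the keratinocyte transcripts in these values was not tested. With all libraries the median against anti-PD-1 was -0.02, with 13 of 35 members positive, beside 56.7% of all genes, and the range ran from -0.25 ± 0.16 for Psmd9 (adjusted p = 0.652) and -0.14 ± 0.13 for Psmd4 (adjusted p = 0.811) to 0.06 ± 0.12 for Psma1 and 0.09 ± 0.12 for Psma4 (adjusted p = 0.959 and 0.919). Groups did not overlap for Psmd8 and Psmd9, both lower, beside 5.01% of all genes, and for 0 higher members, beside 7.3%. Of the 59 list genes 0 were called in either comparison, and Irf1 had the smallest p against isotype (0.90 ± 0.27, adjusted p = 0.320) and Blmh against anti-PD-1 (0.86 ± 0.36, adjusted p = 0.448).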

How the data were processed

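Bulk RNA from 15 tumors was sequenced, and the deposited table gives TPM made by the authors (Bowtie2 and RSEM, with the builds GRCm38 and mm10, per the submitters' processing notes, which name no versions). All 15 columns were used (0 left out). Groups came from the sample titles. On log2(TPM + 1), for 13592 genes with at least 1 TPM in at least 3 libraries, 1 limma model (limma 3.58.1, R 4.3.3, trend and robust, 10 residual degrees of freedom) gave 6 comparisons of groups, their interaction and an F-test, 2-sided, with Benjamini-Hochberg adjustment over all genes. The script was tested on simulated data with independent noise in each gene and library. These lacked the differences by coding length seen here, so that test does not bear on how such differences affect the calls. Ratios were compared by exact permutation. Coding lengths and positions are from GENCODE M21, and 12390 tested genes (91.2%) had a length. The members and lists were chosen with earlier results of these data known.

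Named members were those called, the catalytic, ATPase and cap subunits listed in the design, and the extremes of fold change, level and spread. Named list genes were those called or of smallest p. Alternatives were a pseudocount of 0.1, no filter, a minimum of 5 TPM, median-of-ratios scaling, quantile normalization, the replicate number as a block and leaving out single libraries. Removal of a lowess trend on coding length (span 0.3) and omission of 3 libraries low in long transcripts were added after the data were seen.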

Additional observations from a re-analysis of the deposited data

How the results depend on the processing

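The count of members called was 0 under every setting run for anti-PD-1 against isotype in either line, for the interaction and for both comparisons of triple therapy. For UV2 against parental tumors under isotype it was 0, with a range of 0 to 1 when single libraries were left out. Under anti-PD-1 it was 5, with a range of 0 to 5 when single libraries were left out, 3 with the coding length trend removed and 0 without the 3 libraries low in long transcripts, the last 2 settings chosen after seeing the data. The F-test over the 5 groups called 3 members, 1 with no filter, and 0 to 4 when single libraries were left out. The shares of all genes called were 9.92%, 4.4% and 1.91% to 18.7% in the same order. The labels do not say whether replicate numbers pair libraries. Over 30 same-numbered pairs, the correlation of deviations ranged from -0.54 to 0.47 with 10 above 0.1. This cannot exclude pairing, because the column names of the deposited table carry other numbers, which were not examined. With the replicate number as a block the F-test called 1 member (Psmb10) and UV2 against parental under anti-PD-1 still 5. Median-of-ratios scaling moved the median of all genes in UV2 against parental under anti-PD-1 from -0.21 to 0.03, and that of the members from 0.02 to 0.29, with 30 of 35 positive. The calls of all genes were then 1951 higher and 1793 lower, where they were 1265 and 2321, and Psmd2 was not called (-0.29, adjusted p = 0.063). It also moved the members' median to -0.25 for triple therapy against isotype, 0.07 for anti-PD-1 in UV2 tumors and 0.22 for the interaction, which was 0.13 with the length trend removed. Called members kept their signs under all settings. With no counts deposited in the table used, depth sets no floor or interval, and the 3 libraries a group limit the precision.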
